A study of Mus musculus with 4 samples.

Results

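The miRNAs described here are 10 mature mouse miRNAs known from other work to target Bcl2, the gene of an anti-apoptotic protein of the outer mitochondrial membrane. They were chosen by name and not by their measured values, but with earlier results of these data known. They belong to the miR-15/16, miR-34, miR-181 and miR-204 families. Of the 10 names, 9 were among the 603 miRNAs listed for the exosome libraries, and mmu-miR-181c-5p was not. A minimum of 10 reads in all was reached by 6 of the 9 and by 376 of all 603 listed miRNAs, which were tested. The question was how abundant these miRNAs were in exosomes of microglial cells, whether their levels differed after heat stress (HS), and how both compared with mmu-miR-466i-5p, the miRNA for which the study examined Bcl2 as a target.

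The exosomes, small vesicles released by cells, were pelleted by ultracentrifugation from the medium of BV2 cells, an immortalized mouse microglial line of genotype WT by the labels. The control group (2 libraries) stayed at 37 °C for 2 h, whereas the HS group (2 libraries) spent 2 h at 42 °C and was rewarmed at 37 °C for 12 h by the labels, while the study's text names a shorter interval in one place. No wait of 12 h is given for the control group, so heating and time in culture cannot be told apart. Nor can a smaller part of vesicles carrying a miRNA and less of it per vesicle, since each library pools vesicles. The values are scaled within each library and do not give the number of vesicles. The libraries are called control 1, control 2, HS 1 and HS 2 after their replicate numbers. The labels do not say whether the replicates came from separate cultures, and the p-values measure only the spread between these libraries.

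A miRNA guides the Argonaute protein to messenger RNAs that pair with its seed, the bases 2 to 8 from its 5′ end, and lowers the stability or translation of the message. MiRNAs with the same seed form a family and share many predicted targets. The miR-15/16 family is known for repressing Bcl2 and cell cycle genes, miR-34a is a transcriptional target of p53, the miR-181 family is abundant in lymphoid and nervous tissue, and miR-204 is best known from retinal pigment epithelium.

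The mature sequences are shown because the seed, in capitals, sets the families apart while the bases after it separate the members of a family. All 10 were found by name in the RefSeq table for GRCm38.p6.
mmu-miR-15a-5p: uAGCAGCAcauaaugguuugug
mmu-miR-15b-5p: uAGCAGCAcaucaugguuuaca
mmu-miR-16-5p: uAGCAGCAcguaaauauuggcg
mmu-miR-195a-5p: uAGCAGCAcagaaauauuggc
mmu-miR-34a-5p: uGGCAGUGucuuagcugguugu
mmu-miR-181a-5p: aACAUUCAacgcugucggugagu
mmu-miR-181b-5p: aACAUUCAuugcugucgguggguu
mmu-miR-181c-5p: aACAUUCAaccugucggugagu
mmu-miR-181d-5p: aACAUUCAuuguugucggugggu
mmu-miR-204-5p: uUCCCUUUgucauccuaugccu
Counted from 1 at the 5′ end, miR-181b-5p and miR-181d-5p differed by 1 substitution over 23 bases (C12U, miR-181b-5p first). MiR-16-5p and miR-195a-5p differed by 2 over 21 bases (G10A and U11G, miR-16-5p first). The mismatches allowed when the authors assigned reads are not given in the sources used here, so the split of reads within these pairs is uncertain.

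Several members are made from linked genes. MiR-15a-5p (chr14:61632075-61632096, minus strand) and a copy of miR-16-5p (chr14:61631936-61631957) lie in an intron of Dleu2, a non-coding gene on the same strand. MiR-15b-5p (chr3:69009775-69009796, plus strand) and the other copy of miR-16-5p (chr3:69009918-69009939) lie in an intron of Smc4, which encodes a condensin subunit. MiR-181a-5p and miR-181b-5p are paired on chromosome 1 (chr1:137966468-137966490 and chr1:137966650-137966673) in an intron of the transcript Gm4258. They are paired again on chromosome 2 (chr2:38852741-38852763 and chr2:38853845-38853868), in an intron of Nr6a1 on the opposite strand. The copies of miR-181b-5p also overlap exons, of A430106G13Rik on the same strand of chromosome 1 and of Gm44144 on the opposite strand of chromosome 2. MiR-181c-5p and miR-181d-5p (chr8:84178924-84178945 and chr8:84178759-84178781) lie in an intron of Nanos3. MiR-204-5p (chr19:22750610-22750631) lies in an intron of Trpm3, an ion channel gene. MiR-195a-5p (chr11:70235062-70235082) and miR-34a-5p (chr4:150068473-150068494) lie in no GENCODE M21 gene of a type other than miRNA. Overlap with other miRNA genes was not searched.

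The seeds were compared with the mouse Bcl2 message, since a site is what the members are assumed to share. In GENCODE M21 the 3′ untranslated regions of its transcripts, on the minus strand of chromosome 1, span 5086 bases in Bcl2-201 and 1942 bases in Bcl2-202. Searched on the message strand only, the match to the miR-15/16 seed (TGCTGCT) occurred 1 time in Bcl2-201, as did the matches to miR-181 (TGAATGT) and miR-204 (AAAGGGA), and each of these was followed by A, opposite base 1 of the miRNA. The match to miR-34 (CACTGCC) occurred 0 times in both regions, which says only that these letters are not there. Bcl2-202 held a match to miR-181 alone, without the A. The sites are printed 5′ to 3′ in the orientation of the message, with the match in capitals.
miR-204 site, chr1:106543054-106543060, base 204 after the stop codon: tatttactgccAAAGGGAaatatcatttat
miR-15/16 site, chr1:106540799-106540805, base 2459: aagaaaccctgTGCTGCTatcctgccaaga
miR-181 site, chr1:106539831-106539837, base 3427: ataatcaggacTGAATGTagataatgggtg
miR-181 site of Bcl2-202, chr1:106710598-106710604, base 1677: atccacagcagTGAATGTgtgatattgact
Such matches are common in regions of this length. Of the 1058 genes whose longest 3′ untranslated region was between 0.8 and 1.2 times as long as that of Bcl2-201, 54.6% held TGCTGCT, 38.0% CACTGCC, 46.3% TGAATGT and 42.8% AAAGGGA. With the A, the 8-base matches to miR-15/16, miR-181 and miR-204 were held by 12.0%, 16.9% and 19.3% of these genes. The seed of miR-466i-5p was not searched, because the RefSeq table used here holds no mature entry of that name. The site that the study predicted for it was therefore not compared. No binding was measured.

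**Figure D1:**
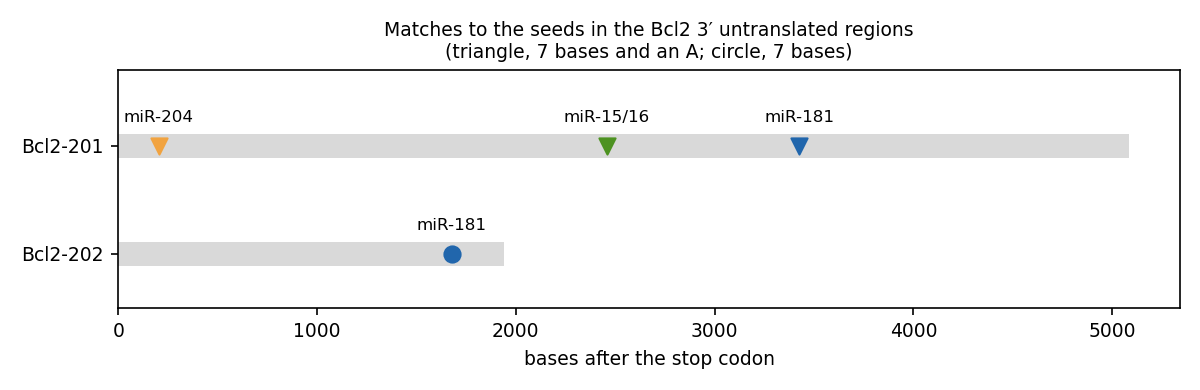
Positions of seed matches along the 3′ untranslated regions of Bcl2-201 (5086 bases) and Bcl2-202 (1942 bases), in bases after the stop codon, with triangles for 7 matching bases followed by A and circles for 7 matching bases alone. Bcl2-201 holds 1 match each for miR-204, miR-15/16 and miR-181, at bases 204, 2459 and 3427, and Bcl2-202 holds 1 for miR-181 at base 1677.

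The values of each library were reads per miRNA divided by a size factor, here called normalized counts. Levels of different miRNAs are compared as such counts of mature forms of 21 to 24 bases. The reads on listed miRNAs numbered 42091 in HS 1 and 96516 to 121503 in the other 3 libraries. A count of 0 allows up to 3 reads, or 7.25 normalized counts in HS 1 and 1.99 to 2.51 in the others. Such limits, like the intervals given for shares, take in counting error alone, because PCR copies of a molecule are counted as separate reads. HS 1 stood apart from the other libraries. It held 0 reads for 167 of the 376 tested miRNAs (44.4%), and the Spearman correlation of normalized counts over the tested miRNAs was 0.68 between the HS libraries and 0.81 between the control libraries. The fold changes of the members are therefore also given without it. Of the myeloid miRNAs taken as markers, miR-146a-5p had 533 to 2662 reads, miR-142a-5p 33 to 281 and miR-155-5p 26 to 188. MiR-142a-3p had 0 to 17 with the 0 in HS 1, and miR-223-3p 0 to 5 with the 0 in HS 2. The 5 myeloid names together held 1.93% and 2.04% of the reads in controls 1 and 2, and 1.41% and 2.72% in HS 1 and 2. The 5 stromal and endothelial names held 3.59% and 1.42% in the controls and 0.0166% and 1.04% in HS 1 and 2, where miR-199a-3p had 0 and 735 reads. The 4 red cell and liver names held 0.0953% and 0.234% in the controls and 0.325% and 0.247% in HS 1 and 2. MiR-122-5p, the main miRNA of liver, was higher in both HS libraries (96 and 206 reads, or 232 and 137 normalized counts) than in both controls (27 and 175 reads, or 22.6 and 119). The groups overlapped for miR-451a and miR-486a-5p (limma log2 fold changes 0.0085 and 0.44), and miR-144-3p had 2 reads in all, in control 1. The source of the reads on these names, and its part in the results, was not tested.

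The members were minor components of the exosomal miRNAs. Together the 9 listed members had 413 and 428 reads in controls 1 and 2, and 44 and 400 in HS 1 and 2. These were 0.428% and 0.352% of the reads on listed miRNAs in the controls, 0.105% in HS 1 (95% Wilson interval 0.0779% to 0.140%) and 0.351% in HS 2 (0.318% to 0.387%). HS 2 thus lay beside control 2, and only HS 1 was lower than the 3 others beyond counting error. MiR-181a-5p and miR-181b-5p supplied most of these reads, from 69.7% in control 1 to 86.4% in HS 1. In normalized counts the members summed to 318 ± 39.0 (SD, n = 2) for the controls against 186 ± 112 (SD, n = 2) after HS.

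**Figure D2:**
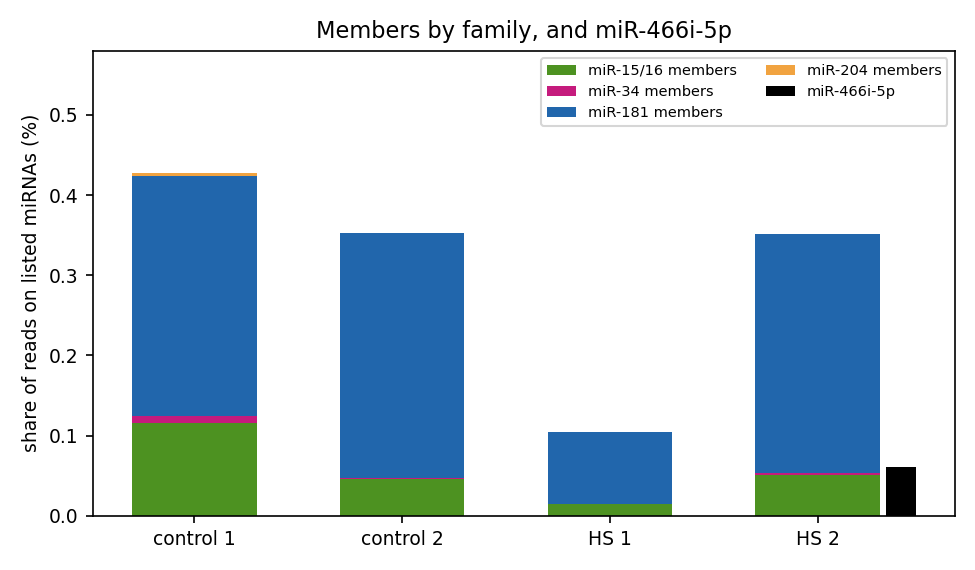
Share of the reads on listed miRNAs (%) held by the members in each library, stacked by family, with miR-466i-5p as a narrow black bar beside them. The members hold 0.428%, 0.352%, 0.105% and 0.351% in controls 1 and 2 and HS 1 and 2, most of it from the miR-181 family, and miR-466i-5p is seen in HS 2 alone.

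None of the 6 tested members differed between the groups by the study's criterion (an unadjusted p under 0.05 and over 2-fold), which 8.24% of all tested miRNAs met (limma on log2 of the normalized count plus 1). After Benjamini-Hochberg adjustment 0 members and 0% of the tested miRNAs had an adjusted p under 0.05. At an unadjusted p under 0.05 the number of members was 0 in limma, and edgeR and DESeq2 on the recovered reads also called 0 of the 6. The fitted log2 fold changes of the 6 members were all below 0, as were those of 65.4% of the tested miRNAs, but those of miR-181b-5p and miR-195a-5p changed sign under other settings. The median was -1.17 for the members and -0.65 for all tested miRNAs. A fall of more than 2-fold was fitted for 4 of the 6 members and for 40.2% of the tested miRNAs. Without HS 1 the median of the members was -0.40 and that of all tested miRNAs -0.17. Both HS libraries lay below both control libraries for 2 of the 6, miR-16-5p and miR-181a-5p, against 32.4% of all tested miRNAs, so the members' share was near the background. Because 1 is added before the log, changes of miRNAs with few reads come out smaller than they are.

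**Figure D3:**
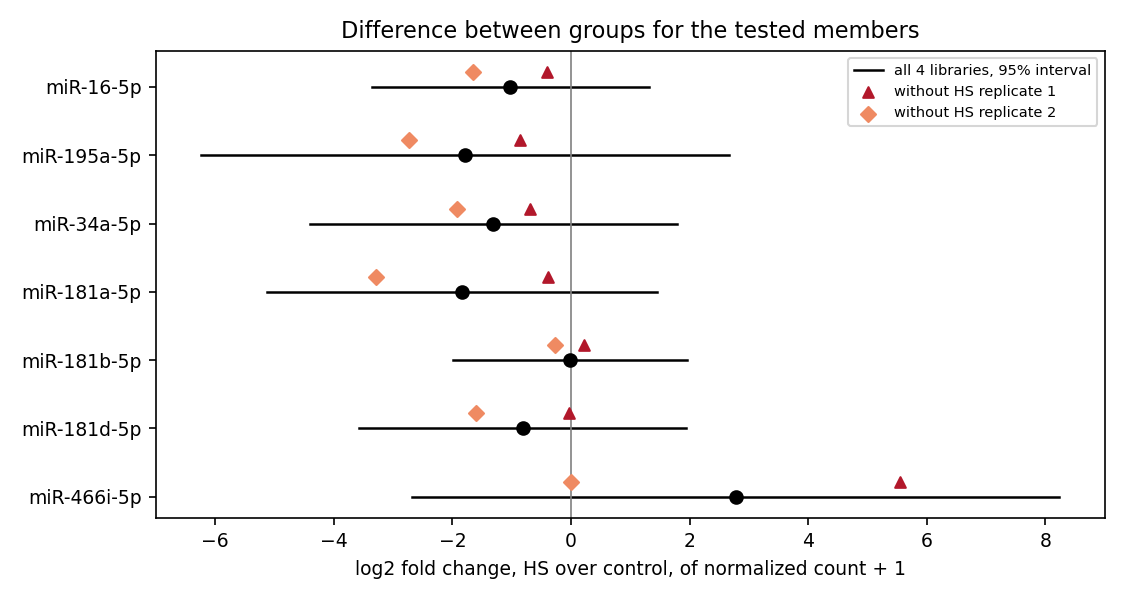
Log2 fold change of the HS group over the control group for the 6 tested members and miR-466i-5p, with black points and 95% limma intervals from all 4 libraries and coloured points without either HS replicate. Every interval crosses 0, and the value of miR-181a-5p moves from -1.84 to -0.39 without HS 1 and to -3.28 without HS 2.

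MiR-181a-5p was the most abundant member in the control group, and by its mean over all 4 libraries it had rank 76 of the 603 listed miRNAs. It had 170 and 234 reads in controls 1 and 2, or 142 and 159 normalized counts, and 6 and 172 reads in HS 1 and 2, or 14.5 and 114 normalized counts. Both HS values lay below both control values, the first by far. The log2 fold change was -1.84 (SE 1.22, 95% interval -5.12 to 1.44, limma adjusted p = 0.621), and the HS libraries were further apart than the group means. The control mean was 10.4-fold above HS 1 and 1.32-fold above HS 2. The log2 fold change was -0.39 when HS 1 was left out and -3.28 when HS 2 was. At the level of any of the other libraries 47.2 to 65.6 reads would have been counted in HS 1 by its size factor, where 6 were. Of the 157 miRNAs with at least 100 reads, 38 (24.2%) were under 0.25 of their control mean in HS 1, and miR-181a-5p was the 13th lowest of them.

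MiR-181b-5p, which shares the seed and both gene clusters with miR-181a-5p, had nearly equal levels in the groups. It had 118 and 131 reads in the controls and 32 and 165 in HS 1 and 2. The normalized counts were 98.6 and 88.8 in the controls and 77.4 and 109 in HS 1 and 2, so the groups overlapped. The log2 fold change was -0.02 (SE 0.73, limma adjusted p = 0.998), and its 95% interval of -1.997 to 1.95 leaves room for a change of nearly 4-fold either way. Its fitted sign was positive without HS 1 (0.22), without control 1 (0.05) and with the edgeR and DESeq2 tests.

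The ratio of these 2 miRNAs within a library needs no scaling between libraries. MiR-181a-5p was 59.0% of the reads of the pair in control 1 (170 of 288, 95% Wilson interval 53.3% to 64.6%) and 64.1% in control 2 (234 of 365, 59.1% to 68.9%). In HS 1 it was 15.8% (6 of 38, 7.44% to 30.4%) and in HS 2 it was 51.04% (172 of 337, 45.7% to 56.3%). Both HS shares were under both control shares, and that of HS 1 lay outside the intervals of the other 3 libraries. The group means were 61.6% and 33.4%, with an exact permutation p of 0.333 (two-sided), the smallest that 2 libraries against 2 can give. The opposite arms of the precursors of miR-181a-5p had few reads. MiR-181a-1-3p had 0 and 9 reads in the controls and 0 and 4 in HS 1 and 2, so it was at 0 in HS 1 and in control 1 (limma log2 fold change -0.48, adjusted p = 0.890). MiR-181a-2-3p was read in all 4 libraries. It had 13 and 16 reads in the controls and 7 in each HS library, or 10.9, 10.8, 16.9 and 4.64 normalized counts in the same order. This arm was 7.10%, 6.40% and 3.91% of its own reads and those of miR-181a-5p in controls 1 and 2 and HS 2, but 53.8% in HS 1 (7 of 13, 29.1% to 76.8%).

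**Figure D4:**
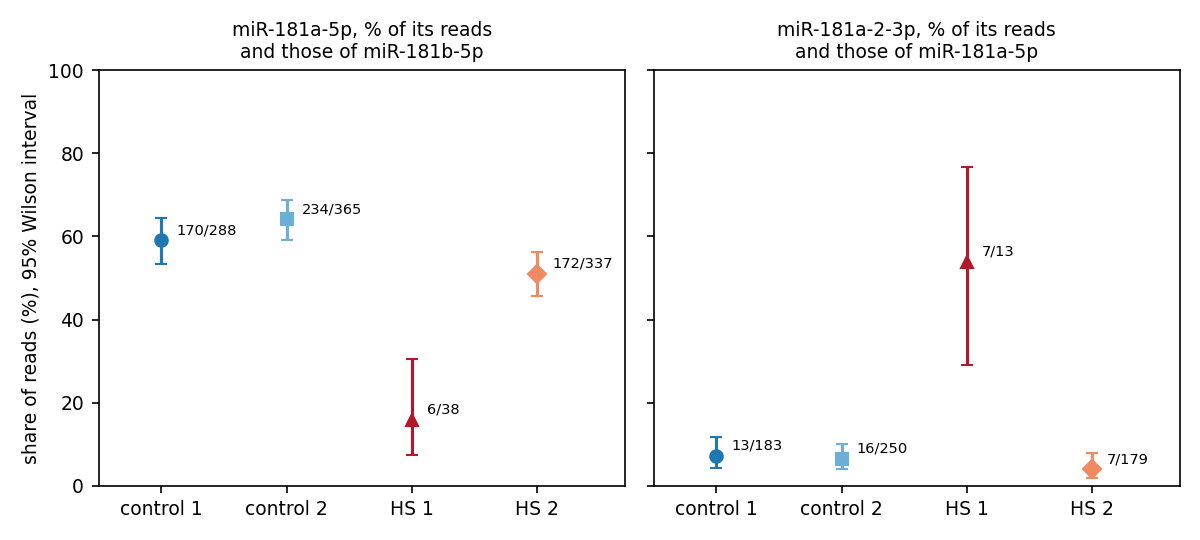
Share of reads (%) with 95% Wilson intervals in each library, for miR-181a-5p among the reads of miR-181a-5p and miR-181b-5p (left) and for miR-181a-2-3p among the reads of miR-181a-2-3p and miR-181a-5p (right), with the read counts beside the points. HS 1 lies apart in both panels, at 15.8% on the left and 53.8% on the right, while HS 2 lies at 51.04% and 3.91%.

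MiR-181d-5p had 1 and 6 reads in the controls and 0 and 3 in HS 1 and 2. With 10 reads in all it just reached the minimum for testing, and its groups overlapped (limma log2 fold change -0.82, SE 1.02, adjusted p = 0.739, and -0.03 without HS 1). Its 0 reads in HS 1 allow up to 7.25 normalized counts, more than its level in any other library, so a difference there was not detectable at this depth. The 3 listed miR-181 members together gave 242 and 251 normalized counts in the controls, 91.9 in HS 1 and 226 in HS 2.

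In the miR-15/16 family, miR-16-5p was the main member, with rank 115 of 603 by the same mean. It had 74 and 54 reads in controls 1 and 2, and 6 and 54 in HS 1 and 2, or 61.9, 36.6, 14.5 and 35.8 normalized counts. HS 2 was almost level with control 2, and HS 1 was lower than the 3 others. The log2 fold change was -1.02 (SE 0.86, 95% interval -3.36 to 1.31, limma adjusted p = 0.621), and it was -0.40 without HS 1 and -1.65 without HS 2. At the level of HS 2, 14.8 reads would have been counted in HS 1 where 6 were.

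MiR-195a-5p, encoded beside miR-497a-5p, rested on control 1. It had 30 reads there, 1 in control 2, 0 in HS 1 and 4 in HS 2, and the groups overlapped. The log2 fold change was -1.79 (SE 1.65, limma adjusted p = 0.656), and it was -0.86 without HS 1 and 0.19 without control 1. Its opposite arm, miR-195a-3p, was read more evenly, with 7 and 5 reads in the controls and 5 and 4 in HS 1 and 2 (log2 fold change 0.33, adjusted p = 0.894 from limma). The arm miR-195a-3p was thus 18.9% of the reads of both arms in control 1 (7 of 37) and 50.0% to 100% in the other 3 libraries, which had 5 to 8 reads of both arms.

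The other miR-15/16 members were at the edge of detection. MiR-15b-5p had 6 and 1 reads in the controls and 0 in both HS libraries, and miR-15a-5p had 1 read in control 1 and 0 elsewhere. The control means of both, 2.85 and 0.418 normalized counts, were under the limit of HS 1, and no fold is given. MiR-15b-3p, from the same precursor as miR-15b-5p, had 8 and 0 reads in the controls and 0 and 9 in HS 1 and 2, and miR-16-2-3p, the opposite arm of a miR-16-5p precursor, had 3 in each control and 1 and 0 in HS 1 and 2. The miR-15/16 members together had 111 and 56 reads in the controls and 6 and 58 in HS 1 and 2, so control 1 was the high library and HS 1 the low one.

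MiR-34a-5p had 9 and 1 reads in the controls and 0 and 2 in HS 1 and 2, with overlapping groups. Its log2 fold change of -1.31 (SE 1.15, limma adjusted p = 0.644) depended on the pseudocount, was -0.70 without HS 1 and -0.14 without control 1, and is no estimate of a fold, since both HS counts were at or under 3 reads. MiR-204-5p had 4 reads in control 1 and 0 in the other 3 libraries, and could not be tested.

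Other miRNAs with the seeds of the members were also sparse. RefSeq holds 11 such names, of which 6 were listed and 1, miR-322-5p, had enough reads for a test. MiR-322-5p, the mouse form of miR-424, has the miR-15/16 seed (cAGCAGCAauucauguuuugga) and had 4 and 14 reads in the controls and 0 and 2 in HS 1 and 2. Both HS values were below both control values, as for 32.4% of all tested miRNAs (limma log2 fold change -2.15, SE 0.93, adjusted p = 0.585). Its 0 reads in HS 1 allow up to 7.25 normalized counts, more than its 3.34 in control 1, so this order is not resolved. MiR-497a-5p had 7 reads in control 1, 0 in control 2, 0 in HS 1 and 1 in HS 2. MiR-34b-5p had 4 reads in all, all in the controls, miR-449a-5p 1, and miR-211-5p and miR-7670-3p, which have the miR-204 seed, 5 and 3. MiR-34c-5p, of the miR-34 family and taken by name, had more reads than miR-34a-5p. It had 36 and 17 reads in the controls and 0 and 7 in HS 1 and 2, or 30.1, 11.5, 0 and 4.64 normalized counts. Both HS values lay below both control values (limma log2 fold change -3.05, SE 1.19, adjusted p = 0.585), and neither miR-322-5p nor miR-34c-5p met the study's criterion. Of the 13 opposite arms of the members' precursors 5 were listed and 4 tested, with log2 fold changes from -0.48 to 0.33. The criterion was met by 0 of these and by 8.24% of all tested miRNAs.

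**Figure D5:**
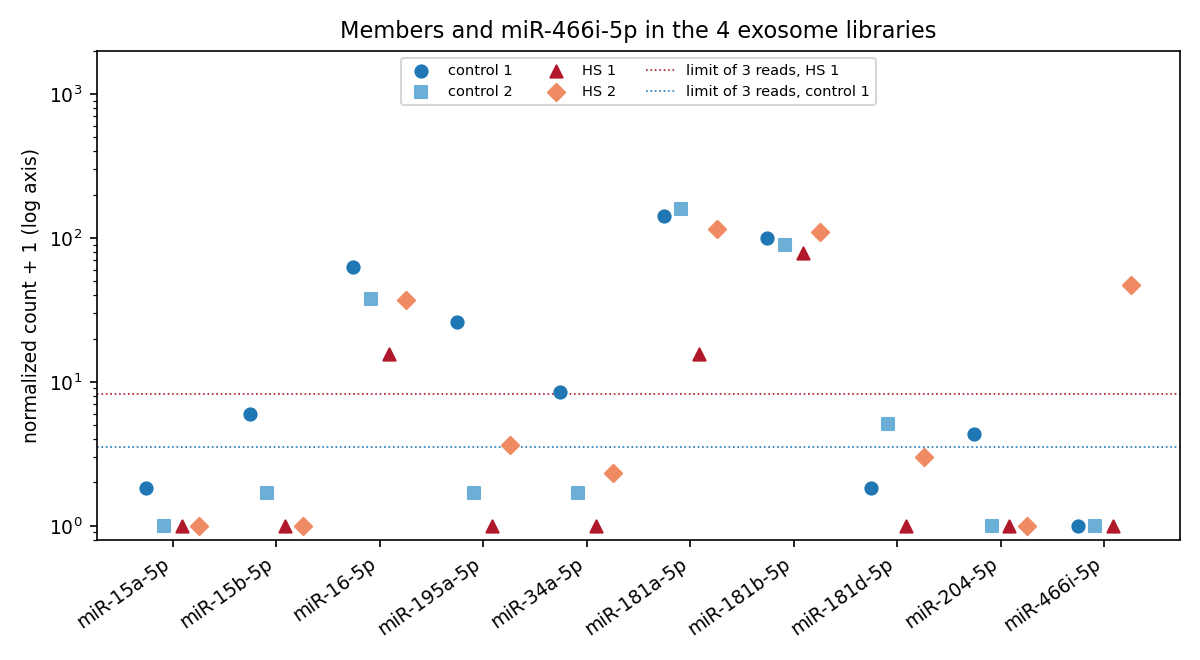
Normalized count plus 1 (log axis) of the 9 listed members and miR-466i-5p in each of the 4 libraries, with dotted lines at the limit of 3 reads in HS 1 (7.25 normalized counts) and control 1 (2.51). MiR-181a-5p, miR-181b-5p and miR-16-5p are the members above the limit in all 4 libraries, and miR-466i-5p is above it in HS 2 alone.

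Against the members, miR-466i-5p had a different distribution over the libraries. It was read in HS 2 only, with 69 reads or 45.8 normalized counts, and had 0 reads in both control libraries and HS 1. Its mean level ranked 198 of 603, below miR-181a-5p (76), miR-181b-5p (81) and miR-16-5p (115) and above the other members. In HS 2, where it was present, miR-181a-5p had 2.49 times its reads (95% exact interval 1.87 to 3.35) and miR-181b-5p 2.39 times (1.80 to 3.22). MiR-16-5p had 0.783 times its reads, with an interval of 0.538 to 1.13 that includes equal levels, and the 3 other members read in that library had 0.0290 to 0.0580 times. Of the reads of miR-466i-5p and the 9 members together, miR-466i-5p was 14.7% in HS 2 (69 of 469, 95% Wilson interval 11.8% to 18.2%). The counts of 0 allow a share of up to 0.726% and 0.701% in controls 1 and 2 and of up to 6.82% in HS 1, which had only 44 reads of the members.

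The fitted log2 fold change of miR-466i-5p was above 0, against -1.84 to -0.02 for the 6 tested members, but it came from a single library. Its value of 2.77 (SE 2.02, 95% interval -2.68 to 8.22, limma adjusted p = 0.621) is no estimate of a fold, since the controls were at 0 reads. It was 4.42 with a pseudocount of 0.1 and 1.67 with a pseudocount of 5. The count tests gave 7.96 in edgeR (unadjusted p = 0.0047, adjusted p = 0.164) and 7.38 in DESeq2 (unadjusted p = 0.017, adjusted p = 0.434), both within the study's criterion. Where miR-466i-5p had 0 reads, the log2 level of a member minus that of miR-466i-5p is the member's own log2 level and an upper limit of the difference. For miR-181a-5p it was at most 7.16 and 7.32 in controls 1 and 2 and at most 3.96 in HS 1, and it was 1.30 in HS 2. With miR-466i-5p at the limit of 3 reads the first 3 values would be 5.35, 5.72 and 0.91, so HS 1 could lie below or above HS 2. For miR-181b-5p the difference was at most 6.64, 6.49 and 6.29, or 4.83, 4.89 and 3.25 at the limit, and 1.24 in HS 2. For miR-16-5p it was at most 5.97, 5.23 and 3.96, or 4.16, 3.63 and 0.91 at the limit, and -0.35 in HS 2. The change of this difference from the control to the HS group ranged over the 6 tested members from -4.61 for miR-181a-5p to -2.80 for miR-181b-5p, and from -4.43 to -2.61 for the same members at the limit. The exact permutation p was 0.333 (two-sided) for each, the smallest possible. The part of the change that came from miR-466i-5p rests on HS 2, which held every read of it. Without that library only the member's own change was left, which was -3.28 for miR-181a-5p, -1.65 for miR-16-5p and -0.27 for miR-181b-5p.

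Of 10 further miRNAs reported elsewhere to target Bcl2, 9 were listed and 7 were tested. Among these 7 there were 0 that met the study's criterion, against 8.24% of all tested miRNAs. With 7 miRNAs, a count of 0 does not set the list apart from that share. The log2 fold changes of the 7 ranged from -4.12 to 0.31 with a median of -2.03, against -0.65 for all tested miRNAs. This median was the value of a single miRNA with 60 reads in all, 0 of them in HS 1. The 4 fold changes below 0 were of miRNAs with 0 to 5 reads in HS 1, so the median leans on that library. Fold changes of the 7 without HS 1 are not given here. Of those with at least 100 reads, miR-7a-5p (273, 418, 146 and 334 reads in controls 1 and 2 and HS 1 and 2), miR-192-5p (42, 116, 25 and 98) and miR-365-3p (32, 32, 20 and 28) were present in all libraries, with log2 fold changes of 0.14, 0.25 and 0.31. MiR-143-3p (714, 305, 5 and 246 reads) and miR-200c-3p (214, 178, 0 and 107) were lowest in HS 1, and their log2 fold changes were -2.93 and -4.12 (limma adjusted p = 0.617 for both). MiR-200b-3p (125, 8, 0 and 13 reads) rested on control 1, and at the levels of control 2 and HS 2 only 2.24 and 3.57 reads would have been counted in HS 1 (log2 fold change -3.07, limma adjusted p = 0.621). MiR-143-3p is also on the list of stromal and endothelial names.

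The miRNAs whose levels over the 4 libraries were most like those of the leading members were found among 154 miRNAs with at least 100 reads, by the Euclidean distance of centred log2 levels. For miR-181a-5p they were miR-20a-5p (distance 0.36), miR-100-5p (0.38) and miR-26b-5p (0.56), which had 2, 7 and 14 reads in HS 1. For miR-16-5p they were let-7g-5p (0.064), miR-22-3p (0.41) and miR-23b-3p (0.43). All 6 had their lowest level in HS 1, which largely follows from the choice, since miR-181a-5p and miR-16-5p were lowest there. With 4 libraries this is a description of those libraries only.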

How the data were processed

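The deposited signal of each library, headed RPKM, held read counts per miRNA that the authors had divided by a size factor, after trimming, filtering and bowtie mapping (version and genome build not given in the sources used here). Division by the smallest value above 0 gave whole reads for 100% of values (tolerance 0.001), and the inverse steps were DESeq2's median-of-ratios factors (1.20, 1.48, 0.414 and 1.51 for controls 1 and 2 and HS 1 and 2). Groups came from sample titles. Limma 3.58.1 (R 4.3.3, no trend) was fitted on log2(normalized count + 1) to all miRNAs with at least 10 summed reads, with Benjamini-Hochberg adjustment. EdgeR 4.0.16 (quasi-likelihood) and DESeq2 1.42.0 (Wald) on recovered reads were alternatives, and steps were tested on simulated data. Intervals are 95%. Python 3.11.15 and scipy 1.17.1 made the tables. Sequences came from RefSeq (GRCm38.p6) and GENCODE M21 (GRCm38), matched by name, with 3′ untranslated regions starting after the stop codon. The members and lists were chosen with earlier results of these data known. Named were the members, miR-466i-5p, same-seed names and opposite arms with a read, other miRNAs reported to target Bcl2 with at least 100 reads, and the 3 miRNAs most like the leading miR-15/16 and miR-181 members.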

Additional observations from a re-analysis of the deposited data

How the results depend on the processing

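Of all tested miRNAs 31 met the study's criterion (6 higher and 25 lower in HS, against 9 and 20 with TMM scaling, 9 and 22 scaled by listed reads, 13 and 19 with edgeR, and 14 and 15 with DESeq2). The number was 16 with a pseudocount of 5, 12 with edgeR's filterByExpr (which left out miR-195a-5p, miR-34a-5p, miR-181d-5p and miR-466i-5p) and 26 to 113 when a library was left out. The number of members was 0 in every setting that kept all 4 libraries. Member counts with a library left out rest on 1 library in a group and are not given. Whether libraries with the same replicate number belong together is not known. The correlation of their deviations was -0.0973, which cannot settle it with 2 libraries per group. With the replicate block 19 miRNAs and 0 members met the criterion. The sign turned for miR-195a-5p without control 1 (0.19, range -3.77 to 0.19 when a library was left out) and for miR-181b-5p with edgeR (0.066), DESeq2 (0.0045), without control 1 (0.052) and without HS 1 (0.22, range -0.27 to 0.22). MiR-466i-5p met the criterion with edgeR (log2 fold change 7.96) and DESeq2 (7.38), and its log2 fold change without HS 1 was 5.55. Over all alternatives the adjusted p was 0.102 to 0.962 for miR-181a-5p and 0.224 to 0.990 for miR-16-5p, both lower in HS in each of 16. HS 1, with 42091 reads, limits what can be said of members under 7.25 normalized counts.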
